A study of Mus musculus with 6 samples.

Results

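The 10 genes described here are markers of the stem cells at the base of the intestinal crypt and targets of Wnt signalling. They were chosen by name, from the symbols Lgr5, Ascl2, Olfm4, Smoc2, Axin2, Rnf43, Znrf3, Sox9, Ephb2 and Cd44, and each symbol matched 1 of the 55335 genes in the count table. All 10 passed the low-count filter, as did 14107 genes in all. RNA-seq was performed on intestinal tissue from 3 wild-type (WT) mice and 3 Trmt6-/- mice. Every animal of both groups had colitis induced with DSS (dextran sulfate sodium), which damages the lining of the gut, and no animal without DSS was analysed here. The labels give neither the age, sex or strain of the mice, nor the segment of intestine, nor how the Trmt6 allele was made. Trmt6 encodes the non-catalytic partner in the complex that methylates adenosine in tRNA, and these libraries measure transcript abundance, not translation.

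Wnt ligands and R-spondins keep the cells of the crypt base dividing. When they bind, beta-catenin is spared from destruction and, with TCF/LEF transcription factors, switches on target genes. R-spondins act through LGR receptors by removing RNF43 and ZNRF3, ubiquitin ligases that take Wnt receptors off the cell surface. Several targets, Axin2, Rnf43 and Znrf3 among them, are themselves brakes on the pathway. In the DSS model crypts are damaged and lost, and stem cells and their progeny later rebuild the epithelium.

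The table header names the libraries by group and animal number, and the libraries are called by those names here: KO72, KO73 and KO75 for the group labelled Trmt6-/-, and WT185, WT186 and WT187 for the wild type. Triplets of values always follow these orders. Total counts ran from 15213972 to 16972758 per library. Values are given as CPM, each library's counts scaled to a common total of tested genes by TMM. Trmt6 itself was not reduced under its label: it stood at 39.8, 34.2 and 36.2 CPM in the group labelled Trmt6-/- and at 30.9, 18.7 and 23.1 CPM in the wild type. Every library labelled Trmt6-/- thus lay above every wild-type library for Trmt6. Its log2 fold change was 0.60 ± 0.21 (SE), with an unadjusted p of 0.0256 and an adjusted p of 0.335 by edgeR's quasi-likelihood test. The deleted part of the gene is not given in the labels, so counts over the whole gene check the label only in part, and every direction below is between libraries as labelled. The tissue carried epithelial transcripts: the summed level of 9 pan-epithelial genes was 10480 to 13270 CPM in the libraries labelled Trmt6-/- and 10710 to 11550 CPM in the wild type. Small-intestinal Paneth cell genes were abundant, and markers of the colon were mixed. Of 9 colon genes in the table, Hoxb13, Hoxd10, Hoxd11 and Hoxd13 had no count in any library. The 9 summed to 515.3 to 730.0 CPM in the libraries labelled Trmt6-/- and 452.6 to 546.8 CPM in the wild type, with B4galnt2 the most abundant. In bulk tissue, fewer crypt base cells and less RNA per cell cannot be told apart.

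Promoter sequences show what lies just before the start of these genes. RefSeq windows of the 250 bases before a transcription start (GRCm38.p6) matched 6 of the 10 genes and gave 7 windows, since Rnf43 has 2 starts. Those of 3 genes are printed, for the gene that varied most between libraries (Olfm4), for the stem cell transcription factor that varied with it (Ascl2) and for the Wnt feedback gene against which others are compared below (Axin2). They lie at chr14:80000052-80000301 on the plus strand for Olfm4, chr7:142969265-142969514 on the minus strand for Ascl2 and chr11:108920099-108920348 on the plus strand for Axin2. Each is written 5′ to 3′ on the strand of the gene, and capitals mark a CCAAT box on either strand.
Olfm4: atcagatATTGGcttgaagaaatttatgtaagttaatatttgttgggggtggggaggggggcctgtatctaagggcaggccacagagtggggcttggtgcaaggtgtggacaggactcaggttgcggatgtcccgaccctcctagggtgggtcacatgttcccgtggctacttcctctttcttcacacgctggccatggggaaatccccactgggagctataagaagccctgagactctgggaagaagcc
Ascl2: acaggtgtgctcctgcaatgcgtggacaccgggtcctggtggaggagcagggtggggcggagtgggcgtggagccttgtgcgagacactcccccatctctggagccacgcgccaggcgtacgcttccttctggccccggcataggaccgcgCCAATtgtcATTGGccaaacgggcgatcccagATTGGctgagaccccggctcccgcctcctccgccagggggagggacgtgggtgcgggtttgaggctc
Axin2: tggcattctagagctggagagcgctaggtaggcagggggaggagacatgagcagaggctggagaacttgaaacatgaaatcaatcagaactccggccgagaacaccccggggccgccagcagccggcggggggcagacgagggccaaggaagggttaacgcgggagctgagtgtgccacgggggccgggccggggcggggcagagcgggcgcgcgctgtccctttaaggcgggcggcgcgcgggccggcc
The core letters bound by TCF/LEF factors, CTTTGA or CTTTGT on either strand, were in 0 of the 7 windows and in 27.6% of the 32851 windows of all genes. CCAAT was in 3 of the 7, with 3 copies before Ascl2, 1 before Olfm4 and 1 before Ephb2, and in 33.8% of all windows. A match or its absence describes only these letters in this window. The RefSeq start of Olfm4 lies inside the gene's span in the count table.

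No difference between genotypes beyond the spread between mice was detected for any of the 10 genes. By edgeR's quasi-likelihood test with Benjamini-Hochberg adjustment over 14107 genes, 0 of 10 had an adjusted p below 0.05, against 0.0425% of all genes tested. At an unadjusted p below 0.05 the count was also 0 of 10, against 12.1% of all genes (6.15% higher and 5.94% lower). DESeq2 and limma-voom called 0 of the 10 as well. The 3 values of one group overlapped those of the other for each of the 10 genes, whereas 18.7% of all genes tested had groups that did not overlap (9.7% with the libraries labelled Trmt6-/- higher, 9.03% with them lower). The median log2 fold change, libraries labelled Trmt6-/- minus wild type, was -0.11 over the 10 genes and -0.03 over all genes. It was -1.19 over the 4 crypt base markers Lgr5, Ascl2, Olfm4 and Smoc2, and 0.00019 over the 6 Wnt targets Axin2, Rnf43, Znrf3, Sox9, Ephb2 and Cd44. The lowest adjusted p of a crypt base marker was 0.623, so this gap between medians is a description of these 6 libraries.

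Lgr5, the R-spondin receptor that marks cycling stem cells (chr10:115450311-115587780, mm10, minus strand), was at 12.2 CPM in KO72, 8.45 in KO73 and 0.285 in KO75. In the wild type it was at 37.6 CPM in WT185, 6.0 in WT186 and 7.19 in WT187. WT185 stood above the other 5 libraries and KO75 far below them, where the level rested on 4 counts; KO72 and KO73 lay above WT186 and WT187. The estimated log2 fold change was -1.28 ± 1.14 (SE), with a 95% interval from -3.98 to 1.43 and an adjusted p of 0.740. Without WT185 the estimate was 0.11, so its sign rested on that library.

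Ascl2, the Wnt-driven transcription factor that sets the stem cell programme (chr7:142966829-142969264, minus strand), was at 13.8, 5.66 and 0.641 CPM in the group labelled Trmt6-/-, against 13.1, 2.12 and 7.13 CPM in the wild type. The highest library of each group held nearly the same level, and KO75 was again lowest of all, with 9 counts. The estimate for Ascl2 was a log2 fold change of -0.16 ± 0.998 (SE; 95% interval -2.52 to 2.21, adjusted p = 0.974). Without KO75 it was 0.38 and without WT185 it was 0.56.

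Olfm4, a secreted glycoprotein abundant in crypt base cells (chr14:79984081-80023139, plus strand), had the highest level of the 10 genes. It reached 483.8, 296.8 and 9.18 CPM in the group labelled Trmt6-/-, and 1536, 368.9 and 772.7 CPM in the wild type. KO72 lay between WT186 and WT187, so the groups overlapped. KO73 was below every wild-type library, and KO75 was lower still. The log2 fold change was -1.76 ± 1.16 (SE), with a 95% interval from -4.51 to 0.98 and an adjusted p of 0.623. The estimate was -1.19 without KO75, and it stayed below 0 with each library left out, from -2.55 to -1.09. Of its 2962 exon bases, 153 (5.17%) also belong to an overlapping gene, Gm6999. The Olfm4 count is uncertain to that extent, because the counting is not stated to use strand.

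Smoc2, a secreted matricellular protein also enriched in the stem cells (chr17:14279506-14404790, plus strand), was at 58.9, 33.0 and 8.04 CPM in the group labelled Trmt6-/-, against 126.5, 28.7 and 60.0 CPM in the wild type. The order of the libraries was that of Olfm4 except that WT186 fell below KO73. Smoc2 had a log2 fold change of -1.11 ± 0.76 (SE; 95% interval -2.90 to 0.69, adjusted p = 0.643), and it ran from -1.81 to -0.39 with a library left out.

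The Wnt feedback genes were closer together. Axin2, a scaffold of the complex that destroys beta-catenin and a general readout of Wnt activity (chr11:108920349-108950783, plus strand), was at 116.4, 66.4 and 30.1 CPM in the group labelled Trmt6-/-, against 99.6, 33.2 and 89.3 CPM in the wild type. The mean was 70.9 ± 43.3 CPM (SD, n = 3) in the libraries labelled Trmt6-/- and 74.0 ± 35.8 CPM (SD, n = 3) in the wild type. The log2 fold change was -0.06 ± 0.56 (SE), and its 95% interval, -1.39 to 1.26, leaves room for a more than 2-fold difference in either direction. Of the 5506 exon bases of Axin2, 209 (3.80%) are shared with the overlapping gene Gm11670.

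Rnf43, a ubiquitin ligase that removes Wnt receptors (chr11:87662722-87735539, plus strand), was at 79.9, 51.3 and 31.5 CPM in the group labelled Trmt6-/-, against 63.5, 67.2 and 55.6 CPM in the wild type. It varied least among the wild-type libraries, over 1.21-fold from lowest to highest, and was the only one of the 10 genes that was highest in WT186. Its interval was also the narrowest, from -0.95 to 0.56 around a log2 fold change of -0.19 ± 0.32 (SE; adjusted p = 0.872). Znrf3, its paralogue with the same role (chr11:5276324-5444847, minus strand), was at 21.5, 16.6 and 8.83 CPM in the group labelled Trmt6-/-, against 22.6, 8.87 and 16.4 CPM in the wild type. The lowest library of each group held almost the same Znrf3 level. Its log2 fold change was -0.03 ± 0.43 (SE; 95% interval -1.06 to 0.996, adjusted p = 0.987).

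Sox9, a transcription factor of progenitors and Paneth cells (chr11:112782224-112787760, plus strand), was at 52.2, 31.4 and 13.7 CPM in the group labelled Trmt6-/-, against 47.2, 11.9 and 30.8 CPM in the wild type. The top, middle and bottom libraries of the groups were nearly level. Its log2 fold change was 0.11 ± 0.60 (SE; 95% interval -1.31 to 1.53, adjusted p = 0.967). Ephb2, the ephrin-B receptor that keeps cells in their place along the crypt (chr4:136647539-136835988, minus strand), was at 113.9, 78.5 and 45.2 CPM in the group labelled Trmt6-/-, against 118.3, 39.4 and 74.9 CPM in the wild type. The log2 fold change of Ephb2 was 0.03 ± 0.46 (SE; 95% interval -1.06 to 1.12, adjusted p = 0.987).

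Cd44, a hyaluronan receptor of crypt cells that leukocytes also carry (chr2:102811141-102901665, minus strand), was at 62.0, 28.2 and 10.9 CPM in the group labelled Trmt6-/-, against 38.3, 14.9 and 22.7 CPM in the wild type. KO72 was the highest of the 6 libraries and KO75 the lowest. For Cd44 the log2 fold change was 0.41 ± 0.62 (SE), with a 95% interval from -1.06 to 1.89 and an adjusted p of 0.855. The T and NK cell list, with 12 genes tested, summed to 117.7, 317.8 and 961.1 CPM in the group labelled Trmt6-/-, the opposite order, and to 353.0, 500.2 and 1319 CPM in the wild type. In the wild type the list was highest in WT187 and Cd44 in WT185, while both were higher in WT187 than in WT186. The part of leukocytes in the Cd44 level was not tested.

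**Figure D1:**
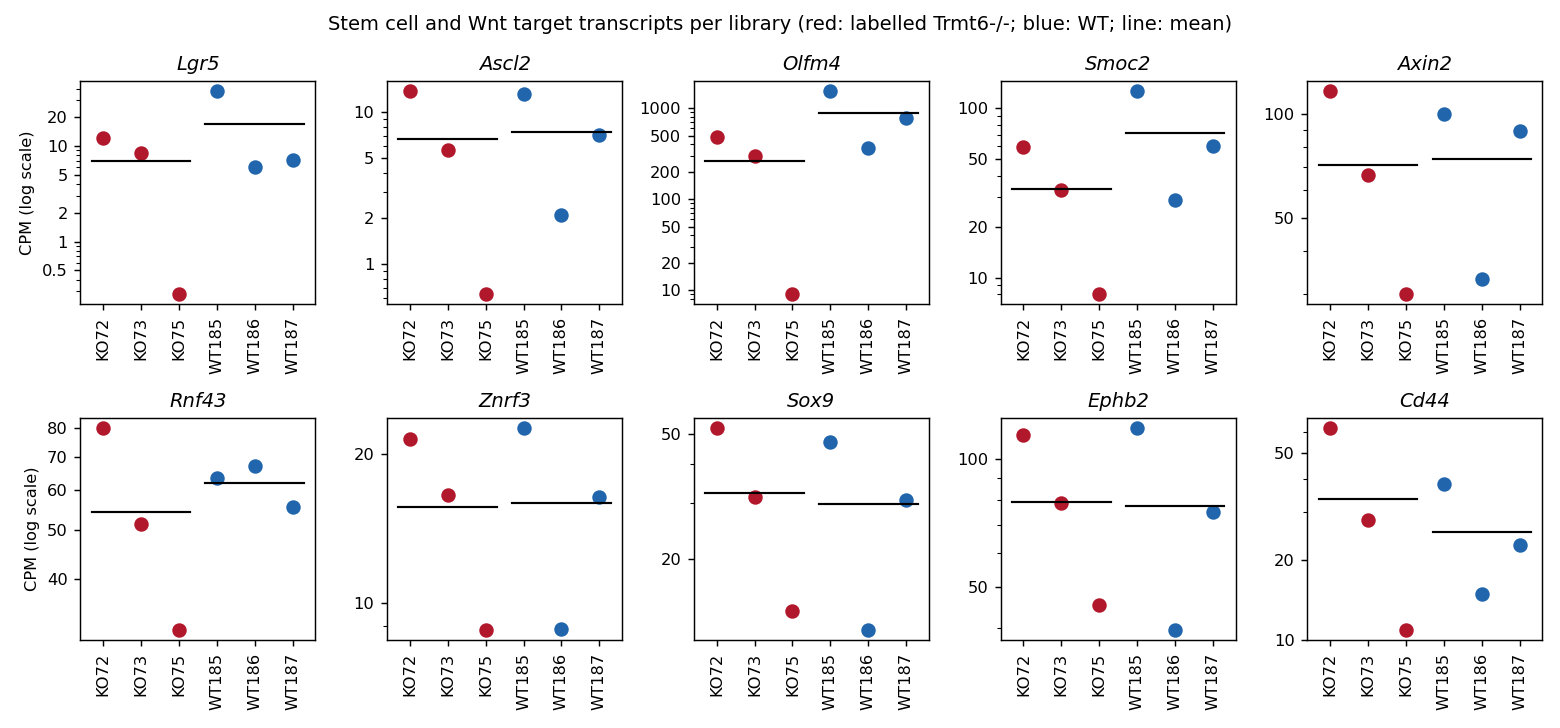
Level of each of the 10 genes in the 6 libraries, in CPM on a log axis; each point is 1 library, coloured by its labelled group, and a bar marks the group mean. KO75 is the lowest of its group in all 10 panels, and the groups overlap in every panel.

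**Figure D2:**
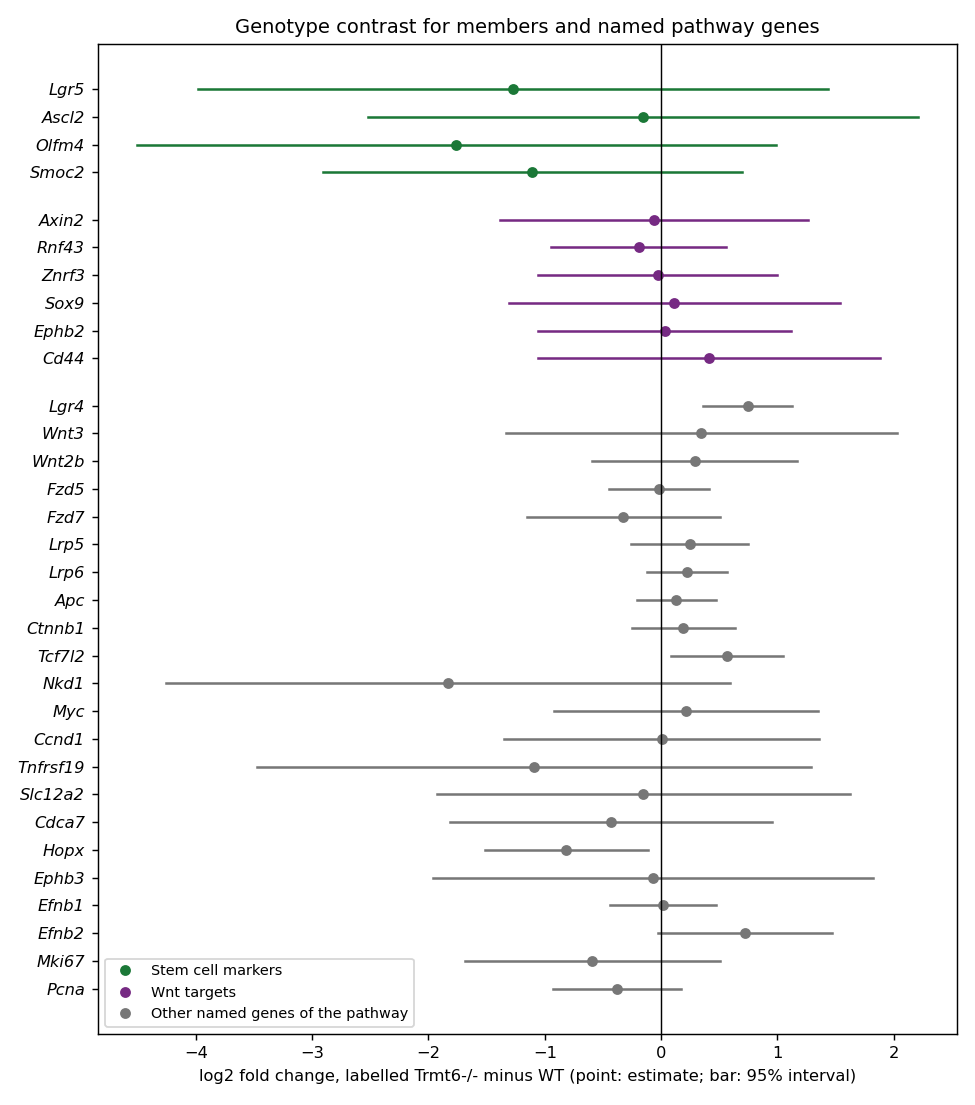
Log2 fold change of each of the 10 genes and of other named genes of the pathway, with 95% intervals from edgeR's quasi-likelihood fit. Differences are libraries labelled Trmt6-/- minus wild type. For each of the 10 genes the interval includes 0. Olfm4 and Lgr5 have estimates of -1.76 and -1.28, and the interval of Rnf43 is the narrowest of the 10. Among the other named genes, the intervals of Lgr4 (0.36 to 1.13) and Hopx (-1.52 to -0.12), for example, exclude 0.

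The levels were also ordered per length, as CPM per kilobase of exon, which is the scale on which different genes can be compared. In the wild type the order of mean levels was Olfm4 at 301.4, Axin2 at 13.5, Smoc2 at 10.3, Rnf43 at 9.47, Sox9 at 7.24, Ephb2 at 6.15, Ascl2 at 4.60, Cd44 at 3.73, Znrf3 at 2.02 and Lgr5 at 1.65 CPM per kilobase. The ranges over 3 libraries overlapped for every neighbouring pair in that order except Olfm4 and Axin2. In the libraries labelled Trmt6-/- Olfm4 was again first, at 88.9 ± 80.7 (SD, n = 3), and Lgr5 last, at 0.680 ± 0.593. There Smoc2 was seventh, at 4.79, and every neighbouring pair overlapped. In KO75 alone Olfm4, at 3.10 CPM per kilobase, was the fifth, below Axin2 at 5.47, Rnf43 at 4.81, Ephb2 at 3.58 and Sox9 at 3.30.

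These genes varied widely within both groups. In the group labelled Trmt6-/-, KO72 was highest, KO73 in the middle and KO75 lowest for 10 of 10 genes, an order that 24.8% of all tested genes shared. In the wild type, WT185 was above WT187 and WT187 above WT186 for 9 of 10, the exception being Rnf43, against 28.7% of all genes. Both orders held together for 9 of the 10 and for 14.1% of all genes. The genes of one tissue are not independent of each other, so these counts carry no test.

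The range from the highest to the lowest library, as a difference of log2(CPM + 0.5), had a median of 2.19 over the 10 genes in the group labelled Trmt6-/- and of 0.49 over all tested genes. In the wild type the medians were 1.76 and 0.62. Among the libraries labelled Trmt6-/-, the range of Olfm4, 5.65, was the widest of all 14107 tested genes. Lgr5 ranked 12 with a range of 4.01 (log2), Ascl2 ranked 20 with 3.65 and Smoc2 ranked 134 with 2.80. KO72 exceeded KO75 by 52.7-fold in Olfm4 (95% counting interval 44.3 to 63.2), by 42.8-fold in Lgr5 (16.5 to 158.6) and by 21.5-fold in Ascl2 (11.1 to 47.6). These intervals cover counting error only.

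The same order of libraries was found in most genes of dividing cells, and in part in other epithelial genes. Of 15 cell cycle genes, 12 followed both orders, against 14.1% of all genes. So did 10 of 14 other crypt base genes, 3 of 7 tested other Wnt targets, 4 of 10 Paneth cell genes and 5 of 9 pan-epithelial genes. None of 10 absorptive enterocyte genes and none of 12 T and NK cell genes did. All 10 Paneth cell genes were highest of their group in KO72 and followed the wild-type order. KO75 was the lowest of its group for only 4 of these Paneth cell genes. The cell cycle list summed to 1228, 807.7 and 447.9 CPM in the group labelled Trmt6-/-, and to 1663, 660.8 and 1227 CPM in the wild type. The enterocyte list had 30390, 51360 and 44600 CPM in the first group and 17670, 48470 and 34530 CPM in the second, lowest of their groups in KO72 and WT185.

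Genes that differ along the length of the intestine varied between the libraries as well. The 4 ileal genes (Fabp6, Slc10a2, Fgf15 and Slc51b) summed to 831.6, 640.8 and 179.1 CPM in the group labelled Trmt6-/-, and to 813.0, 59.8 and 35.6 CPM in the wild type. The 4 genes of the proximal small intestine (Gata4, Lct, Cybrd1 and Fabp1) summed to 500.6, 2170 and 3728 CPM, and to 1427, 6102 and 3575 CPM. KO72 and WT185, the libraries with the highest levels of most crypt genes, were also the highest of their groups for the ileal list and the lowest for the proximal list. Neutrophil genes summed to at most 13.2 CPM and fibroblast genes to at most 30.5 CPM in any library, and Mpo and Sox10 had no count. The labels do not say how these differences arose.

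Fits with such an index as a covariate moved the estimates. With the difference of mean log2 levels between the ileal and proximal lists in the model, all 10 estimates were below 0. The share below 0 over all genes was 49.7%. By edgeR's quasi-likelihood test 7 of 10 had an unadjusted p below 0.05, against 10.7% of all genes lower, and the lowest adjusted p was 0.0717. This index was 0.595, -1.02 and -3.25 in the group labelled Trmt6-/-, and -1.47, -6.82 and -5.64 in the wild type. KO72 and KO73 lay above every wild-type library, so index and genotype were partly confounded. With the pan-epithelial index all 10 were below 0, against 53.3% of all genes. There 7 of 10 had an unadjusted p below 0.05, against 9.7% of all genes lower in that fit, and the lowest adjusted p was 0.0527. With the T and NK cell index all 10 were below 0, against 54.2% of all genes. There 4 of 10 had an unadjusted p below 0.05, against 6.41% of all genes lower, and the lowest adjusted p was 0.302. The 10 genes share most of their library order, so their counts are not independent. With the cell cycle index, a fit added after the data were seen, 6 estimates were above 0 and 4 below, and 5 of those above 0 had an unadjusted p below 0.05, against 10.3% of all genes higher and 11.1% lower. In that fit Sox9 passed, at a log2 fold change of 0.78 ± 0.13 (SE) and an adjusted p of 0.0495 by edgeR's quasi-likelihood test, as 1 of 245 genes called (1.74%). Each index was computed from the same 6 libraries, and the signs of the estimates of Ascl2, Axin2, Znrf3, Sox9, Ephb2 and Cd44 depended on which was used.

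**Figure D3:**
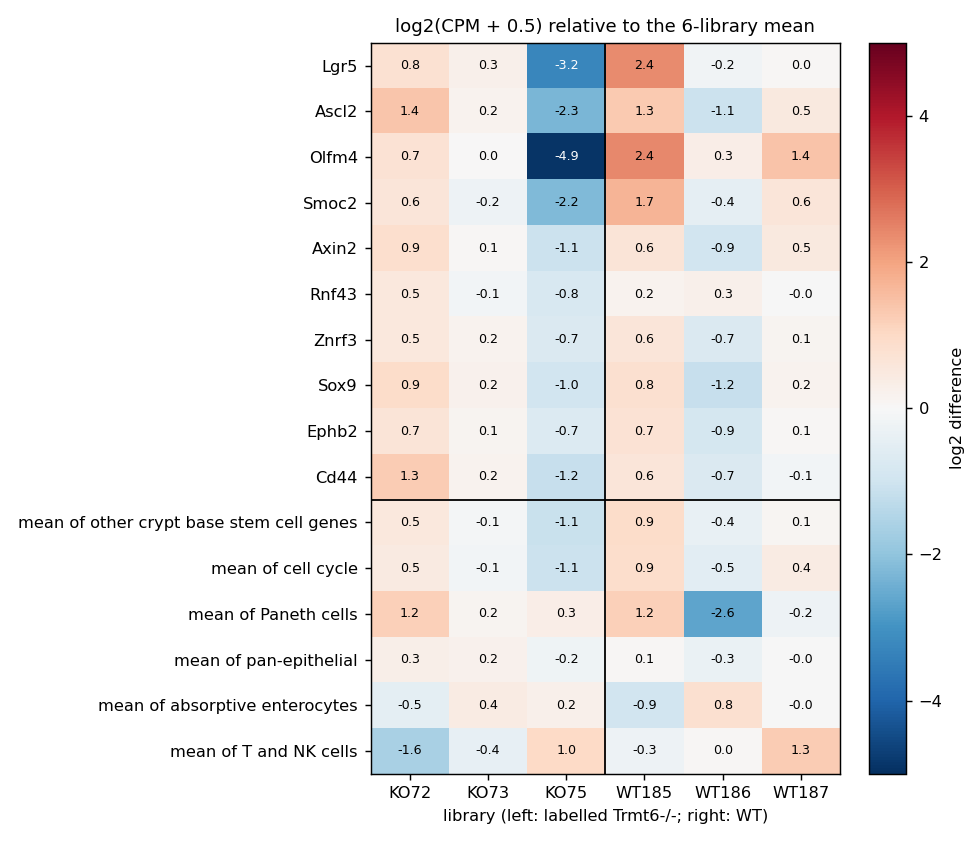
Difference of each gene's log2(CPM + 0.5) from its mean over the 6 libraries, for the 10 genes and for the means of 6 gene lists, with libraries in columns. The crypt genes, the other crypt base genes and the cell cycle list are low in KO75 and high in KO72 and WT185; the T and NK cell list is lowest in KO72.

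The crypt base markers were next set against the 6 Wnt targets of the same library, as log2(CPM + 0.5) minus the mean of those 6. This comparison was chosen after the values had been seen and carries no p. Relative to the Wnt targets, Olfm4 was at 2.89, 2.88 and -1.06 in the group labelled Trmt6-/-, and at 4.77, 3.98 and 4.24 in the wild type. Smoc2 was at -0.14, -0.27 and -1.24, and at 1.17, 0.32 and 0.57. For both genes every library labelled Trmt6-/- lay below every wild-type library, as was so for 2.43% of all genes tested, while 2.4% lay above. KO72 and KO73, too, were each more than 1 log2 unit below the lowest wild-type library in relative Olfm4.

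Lgr5 and Ascl2 did not separate in this way. Relative Lgr5 was at -2.36, -2.17 and -4.68 in the group labelled Trmt6-/-, and at -0.57, -1.84 and -2.41 in the wild type. Relative Ascl2 was at -2.19, -2.71 and -4.15, and at -2.05, -3.16 and -2.42. Other crypt base genes that lay lower in every library labelled Trmt6-/- on this relative scale were Tnfrsf19, Rgmb, Lrig1 and Cdca7, 4 of 14 listed, and the proliferation genes Mki67 and Top2a did so too. The other 10, Slc12a2, Igfbp4, Msi1, Prom1, Mex3a, Cdk6, Bmi1, Hopx, Tert and Cd24a, overlapped, and Igfbp4 and Bmi1 had the higher mean in the libraries labelled Trmt6-/-. The relative level of Mki67 was 2.14, 2.25 and 2.23 in the first group and 2.78, 2.81 and 2.93 in the second, so the separation was not particular to stem cell markers.

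**Figure D4:**
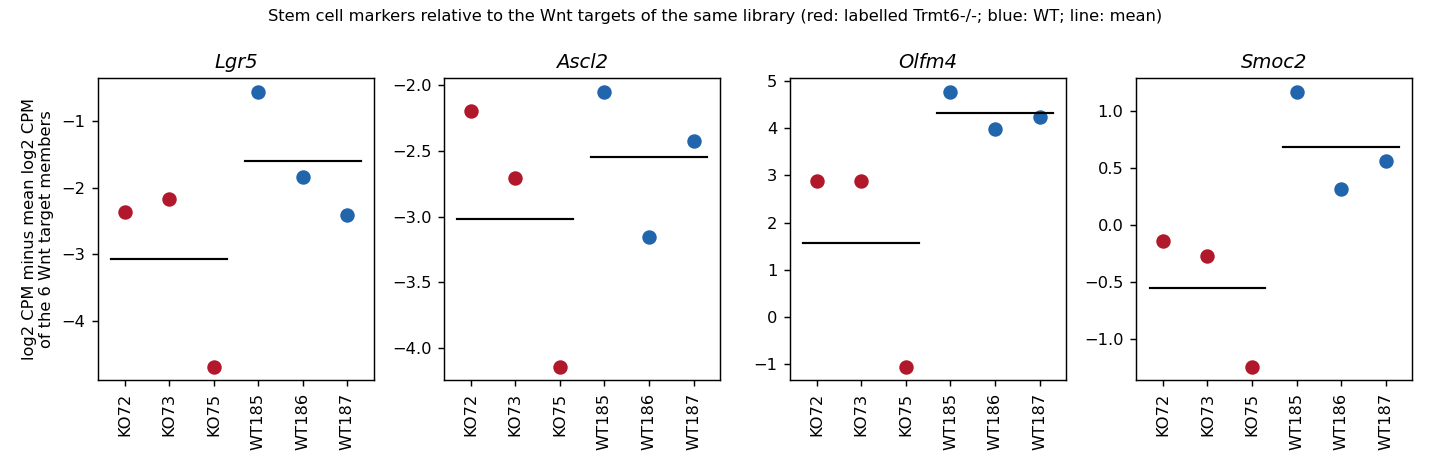
Log2 level of the crypt base markers Lgr5, Ascl2, Olfm4 and Smoc2 minus the mean of the 6 Wnt targets in the same library. Each point is 1 library, coloured by labelled group. Olfm4 and Smoc2 do not overlap between groups, whereas Lgr5 and Ascl2 do.

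The patterns of variation were described by likeness. For each gene with a mean of at least 5 CPM (10355 genes), the root mean square difference of its centred log2 levels from those of Lgr5 or Axin2 was taken over the 6 libraries. Nearest to Lgr5 were Prelp, a leucine-rich proteoglycan, at 0.38, Scn2b, a sodium channel subunit, at 0.48, Msi1, an RNA-binding protein of the crypt base, at 0.51, Smoc2 at 0.60 and Smo, the hedgehog signal transducer, at 0.62. Ascl2 ranked 15 and Olfm4 ranked 55 in likeness to Lgr5. In KO75 Lgr5 was at 0.285 CPM, below the pseudocount of 0.5 CPM, so likeness to it depends in part on that pseudocount. Nearest to Axin2 were Wdr62, a spindle pole protein, at 0.11, the adhesion molecule L1cam at 0.11, the mitotic kinase Pbk at 0.17, the tubulin Tubb5 at 0.17 and the cell cycle kinase Cdk1 at 0.18. Sox9 ranked 7, Ephb2 77 and Znrf3 85 in likeness to Axin2, while Olfm4 ranked 10251. The libraries are shared by all these comparisons, and likeness over 6 of them is a description.

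The rest of the Wnt pathway was taken from 8 further lists with 108 genes, of which 81 were tested and 0 passed the adjusted threshold in edgeR's quasi-likelihood test. At an unadjusted p below 0.05, 2 of the 81 had estimates above 0, Lgr4 and Tcf7l2, against 6.15% of all genes. At that threshold 6 of the 81 had estimates below 0, against 5.94% of all genes: the crypt base genes Hopx and Tert, the ligand Wnt4, the receptor Fzd1, the beta-catenin inhibitor Ctnnbip1 and the secreted inhibitor Sfrp5. Among R-spondins, Lgr4 and Wnt ligands 9 of 19 genes were tested. Rspo2 and Wnt2 had no count in any library, and Rspo1 and Rspo3 were below 1 CPM throughout. R-spondins are made mainly by stromal cells.

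Lgr4, the R-spondin receptor found more widely over the epithelium than Lgr5, had another pattern. It was at 264.9, 266.2 and 259.0 CPM in the group labelled Trmt6-/-, against 180.4, 137.1 and 154.6 CPM in the wild type. The groups did not overlap, and KO75, so low in Lgr5, held a like Lgr4 level to KO72. The log2 fold change was 0.74 ± 0.16 (SE), with an unadjusted p of 0.00265 and an adjusted p of 0.185 by edgeR's quasi-likelihood test. DESeq2, which called 627 genes in all against 6 by edgeR, gave Lgr4 an adjusted p of 0.000939. For limma-voom, which called 0 genes, it was 0.192. Tcf7l2, the main TCF factor of the intestinal epithelium, had a log2 fold change of 0.57 ± 0.20 (SE), and its groups did not overlap either (adjusted p = 0.342).

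No other listed gene of the pathway passed the adjusted threshold in edgeR's quasi-likelihood test either. The Wnt receptors Fzd5 and Fzd7 had log2 fold changes of -0.02 ± 0.18 and -0.33 ± 0.35 (SE). Fzd1 had -1.14 ± 0.41 without overlap (adjusted p = 0.346). The co-receptors Lrp5 and Lrp6 were at 0.25 ± 0.21 and 0.22 ± 0.14. Apc, the scaffold of the destruction complex, was at 0.13 ± 0.14 and Ctnnb1, which encodes beta-catenin, at 0.19 ± 0.19. Among epithelial Wnt ligands, Wnt3, which Paneth cells make, ranged from 1.23 to 8.18 CPM and was highest in KO72 and WT185. The ligand Wnt2b had a log2 fold change of 0.29 ± 0.37 (SE). Of 7 tested other Wnt targets, 4 had estimates above 0 and 3 below. Myc was at 0.21 ± 0.48, Ccnd1 at 0.01 ± 0.57 and Ephb3, the second EphB receptor of the crypt, at -0.07 ± 0.80. Nkd1 was at -1.83 ± 1.02 and Sp5 at -1.14 ± 0.57 (adjusted p = 0.556 and 0.504 by edgeR's quasi-likelihood test). Nkd1 had 19, 5 and 0 counts in the group labelled Trmt6-/-, against 61, 12 and 21 in the wild type. Notum, which did not pass the low-count filter, had 4, 5 and 1 counts, against 16, 42 and 5. Of the ephrin-B ligands that EphB receptors meet on villus cells, Efnb1 was at 0.02 ± 0.19 and Efnb2 at 0.72 ± 0.32 (adjusted p = 0.431).

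All 15 cell cycle genes had estimates below 0, with a median log2 fold change of -0.49 and 0 of 15 at an unadjusted p below 0.05. Pcna, which is on that list, was at -0.38 ± 0.23 (SE). Mki67, the proliferation marker, was at 286.8, 190.3 and 94.4 CPM in the group labelled Trmt6-/-, against 387.2, 162.9 and 311.1 CPM in the wild type. Its groups overlapped, as did those of the 10 crypt genes.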

How the data were processed

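Per the labels' protocols, amplified cDNA from total RNA (ZYMO Quick-RNA kit) went into Vazyme TD503 libraries. The authors deposited raw gene counts, made with featureCounts 2.0.1 on paired reads, exons and GENCODE M23, per the file headers. The submitters' processing notes name fastp, HISAT2 and the mm10 build, without versions of the tools. No strand option stands in the header, so reads were counted without strand, and there are no molecular identifiers. The deposited gene length (unit other) was used only for levels per kilobase. Columns carry a group name and an animal number and were assigned by group. Each library came from a separate mouse, as far as the design text states 3 per group.

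Symbols came from GENCODE M21 on GRCm38 (55154 of 55335 identifiers matched). After filterByExpr and TMM scaling, edgeR 4.0.16 (R 4.3.3) gave two-sided quasi-likelihood tests with genotype as the only term, and Benjamini-Hochberg adjustment ran over 14107 genes (threshold 0.05). SE values are |log2 fold change| over the square root of F, and intervals are 95%. A pseudocount of 0.5 CPM was used for other log2 values. The biological coefficient of variation was 0.345. Counting intervals for ratios of 2 libraries are exact binomial ones. Alternatives were RLE, upper-quartile and library-total scaling, DESeq2 1.42.0, limma-voom 3.58.1, robust dispersions, other filters, index covariates and each library left out.

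The 10 genes and the lists were chosen with earlier results of these data known. All 10 are named, with 27 fixed partners and controls, the 5 genes most like each of Lgr5 and Axin2, and the marker genes needed to state a list. Other named genes (Wnt4, Tert, Sfrp5, Sp5, Fzd1, Ctnnbip1, Igfbp4, Prom1, Mex3a, Cdk6, Bmi1, Cd24a, Rgmb, Lrig1, Msi1, Top2a, Clu, Ly6a, Anxa1 and Il1rn) were chosen after their values were seen.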

Additional observations from a re-analysis of the deposited data

How the results depend on the processing

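With 3 mice per group and a biological coefficient of variation of 0.345, the 95% intervals of the crypt base markers span several log2 units, and differences inside them were not detectable. No paired analysis was possible because the columns carry animal numbers that match no replicate number of the labels. Over all genes, 6 were called by edgeR; the count was 0 with library totals, 627 with DESeq2, 0 with limma-voom, 159 without the low-count filter, 0 with the regional index, 15 with the T and NK cell index, 13 with the pan-epithelial index and 245 with the cell cycle index as covariate, and from 0 to 6 with a library left out; the cause was not tested. It was 0 without KO73, KO75, WT186 or WT187, and 2 without WT185. The number of the 10 crypt genes called was 0 under all of these except 1 with the cell cycle index, which was added after seeing the data; that gene was Sox9, and with a library left out the number stayed at 0. Of 120 estimates of the 10 genes under alternatives other than leaving out a library, 13 changed sign. Log2 fold changes that changed sign were, with library totals, Ephb2 -0.0591, Ccnd1 -0.0783, Efnb1 -0.0539; with limma-voom, Efnb1 -0.00534. With the regional index as covariate they were Sox9 -1.17, Ephb2 -0.93, Cd44 -1.04, Trmt61a -0.48, Wnt3 -0.75, Lrp5 -0.0191, Myc -0.77, Ccnd1 -0.80, Efnb1 -0.15. With the T and NK cell index they were Sox9 -0.47, Ephb2 -0.35, Cd44 -0.44, Trmt61a -0.0534, Wnt3 -0.0506, Myc -0.24, Ccnd1 -0.20, Efnb1 -0.0641. With the pan-epithelial index they were Sox9 -0.66, Ephb2 -0.50, Cd44 -0.55, Trmt61a -0.13, Wnt3 -0.0853, Myc -0.33, Ccnd1 -0.40, Efnb1 -0.17. With the cell cycle index they were Ascl2 0.62, Axin2 0.48, Znrf3 0.42, Fzd5 0.0897, Slc12a2 0.50, Cdca7 0.11, Ephb3 0.60. With a library left out, the ranges of those that changed sign were Ascl2 -1.25 to 0.56, Axin2 -0.62 to 0.30, Cd44 -0.38 to 0.87, Ephb2 -0.33 to 0.50, Lgr5 -1.97 to 0.11, Rnf43 -0.58 to 0.0795, Sox9 -0.41 to 0.63, Znrf3 -0.33 to 0.33, and among other named genes Ccnd1 -0.46 to 0.33, Cdca7 -1.01 to 0.18, Efnb1 -0.13 to 0.19, Ephb3 -0.96 to 0.72, Fzd5 -0.10 to 0.10, Myc -0.38 to 0.59, Slc12a2 -0.87 to 0.52, Trmt61a -0.19 to 0.51, Wnt3 -0.24 to 1.36. Leaving out KO72, KO75, WT185, WT186 or WT187 turned the sign of at least 1 crypt gene each, and leaving out KO73 of none; without KO72 all 10 estimates were below 0, and without KO75 or WT185 7 of 10 were above 0.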

Other observations

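The secreted Wnt regulators Sfrp5 and Wnt4 were low in every library labelled Trmt6-/-. Sfrp5, an inhibitor that binds Wnt ligands, had 3, 12 and 0 counts in the group labelled Trmt6-/-, and 325, 37 and 77 counts in the wild type. Wnt4, a Wnt ligand, had 0, 0 and 2 counts in the first group and 11, 73 and 27 in the second. Their unadjusted p-values were 0.0063 and 0.00372 and their adjusted p-values 0.229 and 0.201 by edgeR's quasi-likelihood test, so neither passed. Hopx, a marker of slowly cycling crypt cells, was at 26.4, 17.4 and 12.2 CPM in the group labelled Trmt6-/-, against 34.1, 37.3 and 27.5 CPM in the wild type, without overlap and with an adjusted p of 0.344. Sp5, a direct Wnt target, was highest in WT186 at 36.1 CPM, the library in which 9 of the 10 crypt genes were lowest of the wild type.

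Genes of regenerating, fetal-like epithelium, which are known to come up in crypts repairing after DSS, did not follow the order of the crypt genes. The list of 10 summed to 68.7, 115.1 and 139.6 CPM in the group labelled Trmt6-/-, and to 16.2, 57.0 and 40.2 CPM in the wild type, so the groups did not overlap. Il33 was the most abundant gene of this list. Of 8 tested genes 0 passed the adjusted threshold of edgeR's quasi-likelihood test and 4 had an unadjusted p below 0.05, against 6.15% of all genes in that direction. Clu, a marker of the cells that rebuild crypts, was at 23.1, 34.2 and 13.0 CPM in the first group and at 0.730, 4.43 and 0.599 CPM in the second (log2 fold change 3.63 ± 0.83 SE, adjusted p = 0.195). Ly6a, Anxa1 and Il1rn were the other 3, with log2 fold changes of 1.59, 2.11 and 2.60. In all, 5 of 17 marker lists had summed levels that were higher in every library labelled Trmt6-/- and did not overlap, and 0 were lower. Among single tested genes, 9.7% were higher without overlap. Some of these lists rested on few genes: 1 neutrophil, 1 smooth muscle and 2 endothelial genes passed the low-count filter. Besides the regenerating list, B and plasma cell genes summed to 264.7, 340.8 and 591.3 CPM, against 222.0, 209.8 and 199.3 CPM in the wild type. Xbp1 was the most abundant gene of that list, and of its 4 tested genes 2 had estimates above 0 and 2 below. Neutrophil genes summed to 1.75, 4.19 and 13.2 CPM, against 0.99, 1.23 and 1.62 CPM. The smooth muscle list was at 2.03 to 2.65 CPM against 0.782 to 1.43, and the endothelial list at 3.63 to 7.96 CPM against 1.36 to 2.52. Their part in the level of the regenerating genes was not tested.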
